A study of Mus musculus with 4 samples.

Results

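Lef1, the 3 Tcf genes, beta-catenin and a set of genes known to respond to it were examined in single nuclei of the mouse hippocampus. The set held 10 genes of the 55422 gene IDs counted: Lef1, Tcf7, Tcf7l1, Tcf7l2, Ctnnb1, Axin2, Nkd1, Apcdd1, Sp5 and Bcl9, each found by its Ensembl ID. Nuclei came from adult Control mice (Kat6a-f/f, both Kat6a alleles flanked by loxP sites, with no Cre named; 2 libraries) and from Kat6a-cKO mice (NEX-cre together with Kat6a-f/f; 2 libraries). NEX-cre is a Cre gene at Neurod6, a gene switched on in forebrain excitatory neurons; inhibitory neurons and most glia do not express it. The labels do not say whether each library came from 1 animal, so p-values measure the spread between libraries, which may be partly technical. The title of the series names Wnt signalling in CA3, and the comparison of genotypes within each class of nuclei asks which of these genes change with the genotype and where. NEX-cre is named only in Kat6a-cKO, so effects of Kat6a loss, of Cre and of its place at Neurod6 cannot be told apart.

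Wnt ligands act by sparing beta-catenin (Ctnnb1) from a destruction complex that otherwise marks it for degradation. Beta-catenin that builds up enters the nucleus and binds the DNA-binding factors Lef1, Tcf7, Tcf7l1 and Tcf7l2, with Bcl9 as an adaptor, and turns on genes that include feedback inhibitors of the pathway itself. Axin2 (a scaffold of the destruction complex), Nkd1 (a cytoplasmic antagonist), Apcdd1 (a membrane antagonist) and Sp5 (a transcription factor) are such genes. In the hippocampus Lef1 and Wnt signals are known for their part in forming the dentate gyrus, and Tcf7l2 for the passage of oligodendrocyte precursors to myelinating cells.

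The libraries held between 171323466 and 186897245 counts, and 36022 nuclei were placed in 17 groups by clustering. Group names were rebuilt from marker genes, so each stands for nuclei like the named type, and 1 group of interneuron-like nuclei is called by its leading genes, Nxph1 and Kcnmb2. In 14 groups every library held at least 30 nuclei, and these were tested. The sums ranged from 328890 to 479971 counts per library in committed oligodendrocyte precursors and from 31827963 to 43441965 in dentate granule nuclei. Any 2 libraries shared 14 to 18 barcodes of at least 5000 UMIs, of 7613 to 8144 in each. Kat6a itself was not lower in CA3 of Kat6a-cKO beyond the spread of the libraries, with 64.2 and 63.9 CPM (counts of a gene scaled to a fixed total for each class and library) in Control against 60.2 and 64.9 in Kat6a-cKO (log2 fold change −0.03 ± 0.08 SE, edgeR adjusted p = 0.961). The counts cover the whole gene, including parts outside the deletion, so this check cannot show the loss of the deleted part. Neurod6, where the Cre lies, had 70.7 and 61.4 CPM in CA3 of Control and 51.5 and 42.3 in Kat6a-cKO (log2 fold change −0.49 ± 0.11 SE, edgeR adjusted p = 0.215). It was lower in Kat6a-cKO dentate granule nuclei (−0.89 ± 0.15, edgeR adjusted p = 0.0404) and astrocytes (−1.19 ± 0.26, 0.0159). In microglia and oligodendrocytes, which are not known to express it, it had −1.08 ± 0.23 and −1.06 ± 0.19 without passing (0.23 and 0.116). The part of free RNA in these values was not tested.

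Promoter sequences are shown because Tcf and Lef1 bind DNA at a short motif, and because the count of a gene sums over all its start sites. RefSeq windows of 300 bases on GRCm38.p6, from 250 bases before to 50 bases after a start, were found for 9 of the 10 genes, with 15 windows in all. The motif was searched as CTTTGAT and CTTTGAA on both strands. CTTTGAT was in 3.73% of the 32851 windows of all genes, CTTTGAA in 5.14% and either in 8.65%. Sp5 was the 1 gene of the 9 with a match, which begins 104 bases before its start on the plus strand and is given in capitals. The windows of Lef1, Tcf7l2 and Axin2 hold none of these letters on either strand, which says nothing about binding elsewhere.
Sp5, chr2:70474673-70474972, plus strand: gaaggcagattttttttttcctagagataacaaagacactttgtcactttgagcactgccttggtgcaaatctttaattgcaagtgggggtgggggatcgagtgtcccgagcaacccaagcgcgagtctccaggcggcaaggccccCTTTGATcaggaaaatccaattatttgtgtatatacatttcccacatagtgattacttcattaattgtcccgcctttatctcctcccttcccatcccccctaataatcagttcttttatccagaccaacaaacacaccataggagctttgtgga
Axin2, chr11:108920099-108920398, plus strand: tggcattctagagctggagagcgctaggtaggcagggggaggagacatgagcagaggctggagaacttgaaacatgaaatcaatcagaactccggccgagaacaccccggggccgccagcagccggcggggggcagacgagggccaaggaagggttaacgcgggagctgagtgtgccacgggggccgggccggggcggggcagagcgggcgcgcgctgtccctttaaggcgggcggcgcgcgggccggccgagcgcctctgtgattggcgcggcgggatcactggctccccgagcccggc
Lef1, chr3:131110073-131110372, plus strand: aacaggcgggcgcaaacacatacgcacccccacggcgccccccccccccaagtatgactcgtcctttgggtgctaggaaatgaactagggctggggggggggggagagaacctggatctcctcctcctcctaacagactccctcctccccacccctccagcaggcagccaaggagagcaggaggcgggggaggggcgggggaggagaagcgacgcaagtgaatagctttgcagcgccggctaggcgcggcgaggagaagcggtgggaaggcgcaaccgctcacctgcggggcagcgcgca
Tcf7l2, first start, chr19:55741560-55741859, plus strand: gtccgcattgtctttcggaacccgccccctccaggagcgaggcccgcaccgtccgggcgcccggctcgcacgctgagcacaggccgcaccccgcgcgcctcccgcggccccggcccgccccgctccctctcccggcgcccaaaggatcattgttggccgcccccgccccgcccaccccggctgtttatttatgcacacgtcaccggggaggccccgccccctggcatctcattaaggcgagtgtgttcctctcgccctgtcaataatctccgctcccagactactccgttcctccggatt
Tcf7l2, internal start, chr19:55895071-55895370, plus strand: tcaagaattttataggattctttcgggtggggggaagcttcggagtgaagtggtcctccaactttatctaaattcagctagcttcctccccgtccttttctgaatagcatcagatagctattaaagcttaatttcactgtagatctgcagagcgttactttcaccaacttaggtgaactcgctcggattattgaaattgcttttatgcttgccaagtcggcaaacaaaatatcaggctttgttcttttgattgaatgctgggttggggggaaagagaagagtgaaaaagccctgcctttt
The 2 Tcf7l2 windows differ in makeup. The first is 70% G and C with 34 CG pairs, and the internal one is 42% G and C with 7 CG pairs. The Sp5 window, at 45% G and C with 6 CG pairs, is closer to the internal Tcf7l2 start than to the Axin2 window, which is 70% G and C with 31 CG pairs.

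The DNA-binding factors were divided among cell classes. Tcf7l2 and Tcf7l1 were high in the oligodendrocyte lineage and in astrocytes, Tcf7l2 also in microglia, Lef1 in endothelial nuclei and in 1 cluster of astrocyte-like nuclei, and Tcf7 was low in every tested class. In the tested neuron classes the mean level of each factor lay between 0.523 and 6.29 CPM. Levels here are CPM of the summed counts of a class, and a level of 1 gene is compared only between classes. Barcodes with 10 to 99 UMIs, which hold mostly free RNA, had 54.8 to 74.5 CPM of Lef1, 140 to 164 of Tcf7l2, 16.6 to 27.1 of Tcf7l1 and 5.67 to 15.1 of Tcf7. The level of each factor in these barcodes is above its level in dentate granule, CA1 and CA3 nuclei, and also above Tcf7l2 in mature oligodendrocytes (83.8 to 91.6 CPM) and Lef1 in astrocytes as a whole (29.4 to 44.7 CPM), while Tcf7l2 in precursors (132 to 161 CPM) overlaps it. Free RNA was not subtracted, and its part in these levels was not tested.

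**Figure D1:**
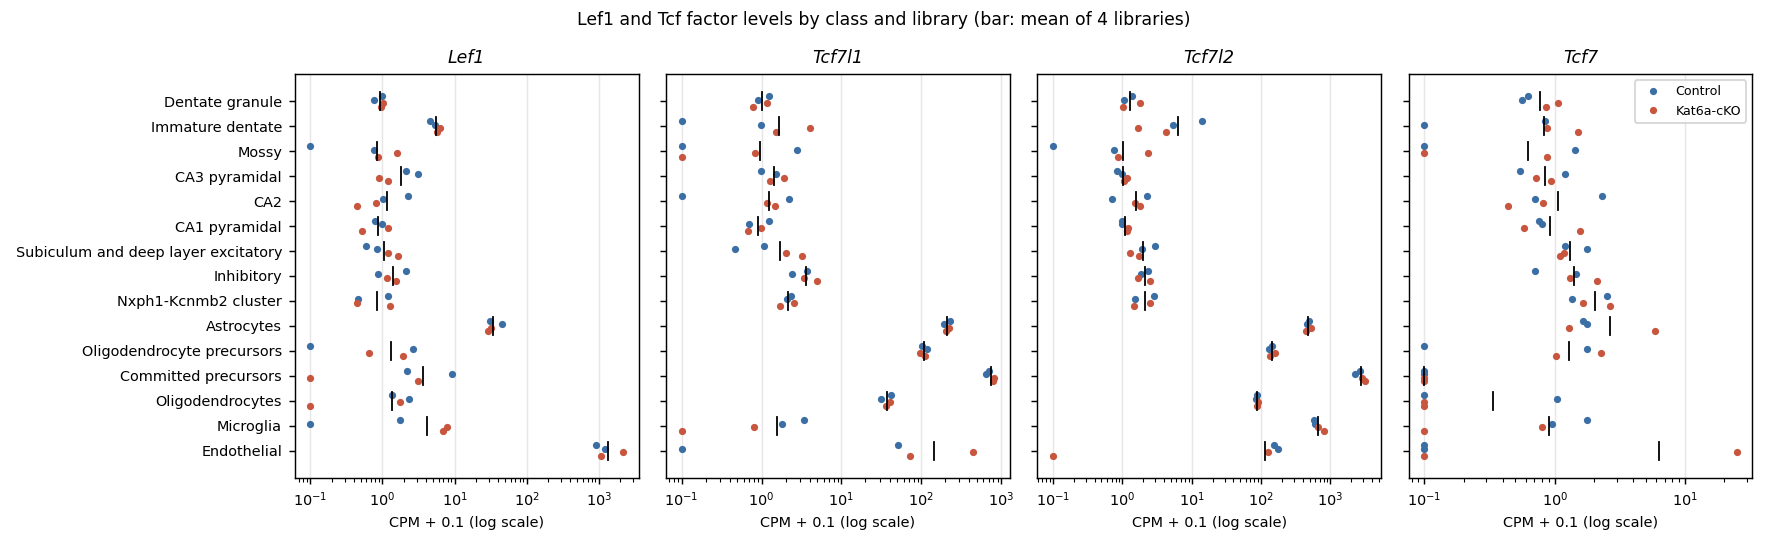
Levels of Lef1, Tcf7l1, Tcf7l2 and Tcf7 (horizontal, CPM plus 0.1 on a log scale) in 15 classes (vertical), with 1 point per library (blue Control, red Kat6a-cKO) and the mean of the 4 libraries as a bar; a point at 0.1 is a count of 0. Tcf7l2 is highest in committed precursors, at 2295 to 3205 CPM, and Lef1 in endothelial nuclei, at 927 to 2161 CPM.

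Tcf7l2 (chromosome 19, 55741820 to 55933654, plus strand, protein-coding, with the RNA gene Ppnr inside it on the same strand; 191.835 kb) was highest in committed oligodendrocyte precursors, the stage between dividing precursors and myelin-forming cells. Its level there was 2690 and 2295 CPM in Control libraries against 2812 and 3205 CPM in Kat6a-cKO libraries. Precursors had 132 to 161 CPM and the mature oligodendrocytes 83.8 to 91.6 CPM, so that all 4 libraries of the middle stage lay above all libraries on either side of it. On the fitted log2 scale the middle stage was 4.28 ± 0.12 (SE, n = 4 libraries) above precursors, which is 19.5-fold (edgeR adjusted p = 8.91e-15), and 4.98 ± 0.12 above oligodendrocytes, which is 31.5-fold (edgeR adjusted p = 1.18e-20). These 2 comparisons were added after the levels were seen, and in them 3 of 5 and 6 of 7 tested members passed, beside 37.4% and 42% of all genes. The precursors were in turn above oligodendrocytes by 0.72 ± 0.08 (edgeR adjusted p = 1.39e-10), where 6 of 7 members passed beside 61.2% of all genes.

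Microglia followed in the order of Tcf7l2 levels, with 576 and 603 CPM in Control libraries against 671 and 818 CPM in Kat6a-cKO libraries. Astrocytes had 493 and 456 CPM in Control libraries against 523 and 448 CPM in Kat6a-cKO libraries. The raw ranges of these neighbours do not overlap, but the fitted difference of astrocytes from microglia was −0.15 ± 0.08 and did not pass (edgeR adjusted p = 0.0937; 95% interval −0.32 to 0.01), so their order is not settled. In this comparison, added after the data were seen, 4 of 6 members passed, beside 63.8% of all genes. All neuron classes were lower: the highest was 14.1 CPM in 1 Control library of immature dentate nuclei (19 counts), and the means of the other tested neuron classes lay between 0.911 CPM in CA3 and 2.0 CPM in the Nxph1-Kcnmb2 cluster. The immature dentate levels depend on the UMI minimum. The 555 nuclei used hold at least 5000 UMIs and had 6.69 CPM of Tcf7l2 and 5.36 of Lef1 when pooled. The immature dentate cluster at a minimum of 1000 UMIs, with 1225 nuclei, had 26.1 and 11.2 CPM. A deep-layer cluster led by Dpp10 and Foxp2 likewise had 2.04 and 1.19 CPM at a minimum of 5000 UMIs and 15.8 and 6.15 CPM at 1000. An unnamed cluster of 629 nuclei led by Dcn and Col5a2, which is in no class, had 7.03 and 2.99 CPM at a minimum of 5000 UMIs.

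Tcf7l1 (chromosome 6, 72626378 to 72789254, minus strand), known mostly as a repressor of the pathway's targets, was highest in the same stage. It had 700 and 645 CPM in Control libraries against 817 and 791 CPM in Kat6a-cKO libraries in committed precursors. Of the tested classes astrocytes came next with 190 to 230 CPM, then precursors with 96.5 to 116 and oligodendrocytes with 31.2 to 41.3, and none of these ranges overlap. The oligodendrocyte class mixes a cluster led by Mobp, with 102.6, 76.9, 100.1 and 88.4 CPM in the order of the libraries (both Control first), which overlaps precursors, and a larger one led by Prr5l, with 22.5 to 27.0 CPM. Committed precursors were above precursors by 2.82 ± 0.13 (SE, 7.06-fold, edgeR adjusted p = 6.17e-12). Microglia parted from Tcf7l2 here: they had 3.35 and 1.72 CPM of Tcf7l1 in Control against 0.699 and 0 CPM in Kat6a-cKO, which are 4, 2, 1 and 0 counts. The fitted difference of astrocytes from microglia in Tcf7l1 was 7.36 ± 0.22 (edgeR adjusted p = 2.07e-55), and microglia were below oligodendrocytes, with a log2 difference of −4.92 ± 0.31 (edgeR adjusted p = 8.52e-14), in a comparison where 6 of 6 members passed beside 61% of all genes. Among neurons Tcf7l1 was higher in inhibitory nuclei, with 2.33 to 4.87 CPM, than in CA1, with 0.582 to 1.15 CPM (log2 difference 2.0 ± 0.28, edgeR adjusted p = 2.92e-05); 5 of 8 members passed in that comparison, beside 58.1% of all genes. Of the 3 inhibitory clusters the one led by Pde3a had 3.61 to 6.61 CPM, and those led by Hapln1 and Reln had 0 to 2.72 and 0 to 4.38 CPM on 0 to 5 counts per library.

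Lef1 (chromosome 3, 131110471 to 131224356, plus strand, overlapped by 2 unnamed RNA genes, 1 of them antisense) was highest in endothelial nuclei, where Wnt signals are known to maintain the blood-brain barrier. These numbered 11 and 6 in the Control libraries and 22 and 9 in the Kat6a-cKO libraries, too few to test. They held 18, 14, 87 and 15 Lef1 counts, or 927 and 1221 CPM in Control libraries against 2161 and 1072 CPM in Kat6a-cKO libraries. The 3 genes whose levels over the 16 named classes followed Lef1 most closely were Id1 (Pearson r 0.983), Ephb4 (0.964) and Arhgef5 (0.948), of 13639 genes compared. The classes share libraries, and Lef1 in endothelial nuclei, the class of fewest counts, lies far above the other classes.

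Astrocytes were the highest tested class, with 31.2 and 44.7 CPM of Lef1 in Control against 31.8 and 29.4 CPM in Kat6a-cKO. They were above oligodendrocytes by 4.59 ± 0.27 (SE, 24.1-fold, edgeR adjusted p = 2.05e-15), in a comparison where 8 of 8 members passed beside 57.5% of all genes. Within astrocytes Lef1 was uneven. A cluster led by Adgrv1, Slc1a3 and Rgs20, with 47, 49, 92 and 41 nuclei (both Control libraries first, then both Kat6a-cKO libraries), had 130, 193, 160 and 121 CPM in the order of the libraries, while the larger cluster led by Gli3, Gja1 and Slc39a12 had 21.2, 19.4, 14.3 and 20.4 CPM. The 4 libraries of the small cluster all lie above the 4 of the large one, and Lef1 took no part in the clustering. At a minimum of 5000 UMIs a cluster of 39 nuclei (24, 7, 5 and 3 in the order of the libraries) shares Adgrv1, Slc1a3 and Rgs20 among its leading genes and had 137 CPM of Lef1 when pooled. Tmem212, Spag16, Cfap299 and Dnah12, genes of motile cilia, also lead it, and it was left unnamed because markers of choroid plexus and ependymal cells were raised beside those of astrocytes. The part of such cells in the small astrocyte cluster was not tested. Tcf7l2 did not divide the 2 astrocyte clusters in this way, with 317 to 532 CPM in the small cluster and 441 to 522 CPM in the large one. Axin2 did, with 28.3, 34.0, 32.6 and 21.3 CPM in the small cluster, on 3 to 10 counts, and 14.9, 19.4, 9.82 and 9.13 CPM in the large one.

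Immature dentate nuclei had 4.47 and 5.25 CPM of Lef1 in Control against 6.22 and 5.63 in Kat6a-cKO, on 4 to 8 counts per library. Mature dentate granule nuclei had 0.67 to 0.924 CPM, so the ranges are apart, and the fitted difference was 2.45 ± 0.43 (SE, 5.46-fold, edgeR adjusted p = 5.25e-06). In this comparison, added after the data were seen, 5 of 8 members passed, beside 37.7% of all genes. Below astrocytes each tested class overlaps its neighbour in the order of Lef1 levels, from immature dentate down to mossy nuclei. The untested Cajal-Retzius nuclei had 0 and 25.7 CPM in Control against 18.4 and 4.39 in Kat6a-cKO, on 0, 5, 4 and 1 counts.

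Tcf7 (chromosome 11, 52252371 to 52283014, minus strand), the factor best known from T cells, had 406 counts over all classes. Its highest mean in a tested class was 2.54 ± 2.15 CPM (SD, n = 4 libraries) in astrocytes, where 1 Kat6a-cKO library had 5.75 CPM and the other libraries 1.18 to 1.66 CPM. Committed precursors held 0 counts in each library, which allows up to 2.0 CPM over the 4 (3 counts of their total, counting error only). This limit holds only for the 186 nuclei used. The committed precursor cluster of 214 nuclei at a minimum of 1000 UMIs, from which they were taken, had 2.73 CPM when pooled. Endothelial and mural nuclei, which were not tested, held 1 count each. No 2 neighbouring tested classes in the order of Tcf7 levels had separate ranges.

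Ctnnb1 (chromosome 9, 120929216 to 120960507, plus strand; Ulk4 and the antisense gene 4930593C16Rik overlap it on the opposite strand), which also joins cadherins at cell contacts, was counted in every class. Over the tested classes its mean level ran from 13.4 ± 3.28 CPM (SD, n = 4 libraries) in oligodendrocytes to 46.7 ± 3.21 CPM in immature dentate nuclei, with every class overlapping the next, and the untested endothelial nuclei had 103 to 174 CPM on 2 to 6 counts. CA3, CA1 and dentate granule nuclei had means of 24.9, 24.4 and 24.4 CPM. The CA3 and CA1 levels differed by 0.04 ± 0.05 on the fitted log2 scale, which did not pass (edgeR adjusted p = 0.533; 95% interval −0.06 to 0.14). Bcl9 (chromosome 3, 97203662 to 97297917, minus strand) ran the other way from Tcf7l2 in the oligodendrocyte lineage: committed precursors had the lowest mean of the tested classes, with 33.4 to 51.3 CPM, against 88.9 to 104 CPM in precursors (log2 difference −1.16 ± 0.18 SE, edgeR adjusted p = 5.56e-05). Its highest mean was in the Nxph1-Kcnmb2 cluster, with 165 to 191 CPM, a range that overlaps immature dentate nuclei and microglia, and the 4 dentate granule libraries lay between 64.6 and 65.2 CPM.

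The known target genes did not share 1 order over the classes. By mean level over the tested classes Axin2 was highest in mossy nuclei and the early oligodendrocyte lineage, Apcdd1 in immature dentate nuclei and Nkd1 in oligodendrocytes, and Sp5 was nearly absent from the counts. The untested endothelial nuclei held more Apcdd1, at 155, 262, 224 and 786 CPM, and more Nkd1, at 103, 87.2, 99.4 and 71.5 CPM, in the order of the libraries (both Control first), on 3 to 11 and 1 to 4 counts. Axin2 had 2 counts there and 4 in mural nuclei. Over the 16 named classes the correlation of Axin2 with Tcf7l2 was 0.06 (Pearson r of log2 levels), with Apcdd1 0.56 and with Nkd1 0.27, given as a description. Empty barcodes had 22.1 to 29.1 CPM of Axin2, 31.1 to 39.7 of Apcdd1 and up to 23.7 of Nkd1.

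**Figure D2:**
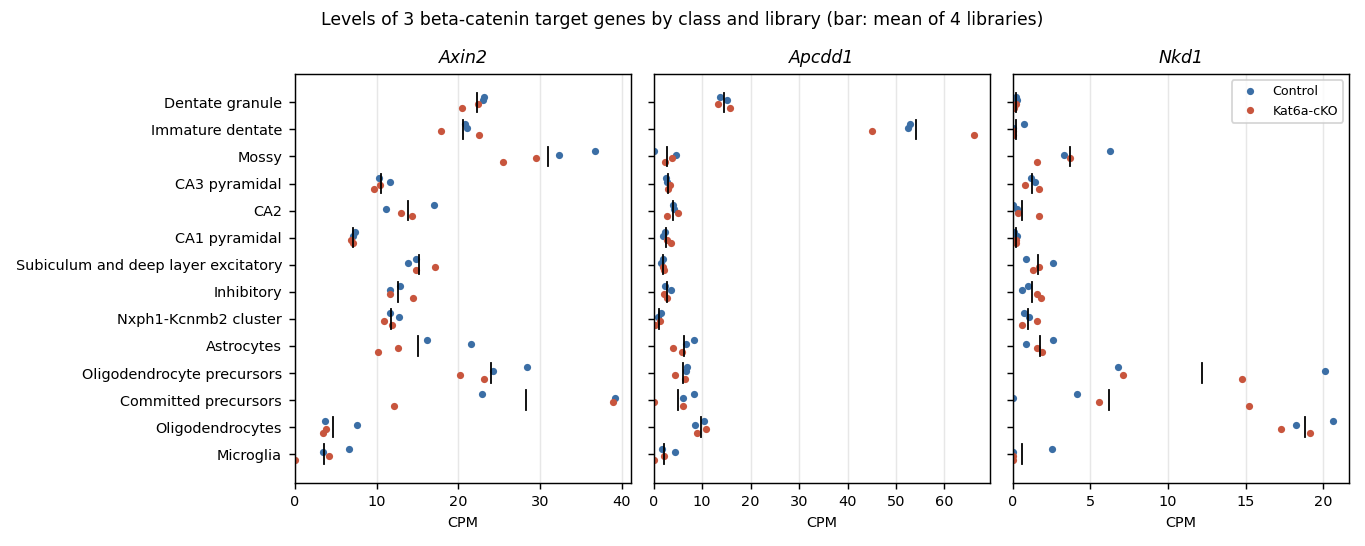
Levels of Axin2, Apcdd1 and Nkd1 (horizontal, CPM) in the 14 tested classes (vertical), 1 point per library (blue Control, red Kat6a-cKO), with the mean of 4 libraries as a bar. Apcdd1 stands out in immature dentate nuclei at 45.1 to 66.2 CPM. Nkd1 has its highest mean in oligodendrocytes at 17.3 to 20.7 CPM, a range that precursors overlap.

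Axin2 (chromosome 11, 108920349 to 108950783, plus strand, with the antisense gene Gm11670 on the other strand) differed along the hippocampal circuit. Dentate granule nuclei had 23.1 and 23.0 CPM in Control libraries against 22.4 and 20.4 in Kat6a-cKO. CA3 nuclei had 10.3, 11.6, 10.4 and 9.75 CPM in the same order of libraries, and CA1 nuclei 7.40, 7.11, 6.90 and 7.11 CPM. The 3 ranges are apart: dentate granule was above CA1 by 1.55 ± 0.06 (SE, 2.93-fold, edgeR adjusted p = 1.73e-10) and CA3 above CA1 by 0.57 ± 0.08 (1.48-fold, edgeR adjusted p = 4.86e-05). In the first comparison 3 of 8 members passed beside 66.3% of all genes, and in the second 5 of 9 beside 56%. CA3 lay below dentate granule, with a log2 difference of −0.99 ± 0.06 (edgeR adjusted p = 4.03e-10), where 6 of 9 members passed beside 69%. Mossy nuclei, the excitatory cells of the dentate hilus, had 36.7 and 32.4 CPM in Control libraries against 29.6 and 25.5 CPM in Kat6a-cKO libraries, in a range that overlaps those of both precursor classes.

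In the oligodendrocyte lineage Axin2 was lower in the mature cells. Precursors had 28.4 and 24.3 CPM in Control libraries against 20.2 and 23.1 in Kat6a-cKO, and oligodendrocytes had 3.73, 7.56, 3.84 and 3.52 CPM, a difference of 2.38 ± 0.24 (SE, 5.21-fold, edgeR adjusted p = 1.88e-12). Committed precursors, where Tcf7l2 was highest, had 22.9, 39.2, 38.9 and 12.2 CPM on 4 to 14 counts, and did not differ from precursors beyond the spread (0.25 ± 0.31, edgeR adjusted p = 0.573; 95% interval −0.35 to 0.86). Within CA3 the cluster led by Armc4 had 16.1 to 20.9 CPM and the larger cluster led by Nectin3 had 8.63 to 10.2 CPM. The genes nearest to Axin2 over the classes were Gmds (r 0.804), Ece1 (0.768) and Sptbn1 (0.747).

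Nkd1 (chromosome 8, 88521354 to 88594884, plus strand) was, among tested classes, highest in mature oligodendrocytes, with 20.7 and 18.3 CPM in Control libraries against 17.3 and 19.1 CPM in Kat6a-cKO libraries, the reverse of Axin2 along that lineage. Precursors had 6.76 and 20.1 CPM in Control libraries against 7.09 and 14.8 CPM in Kat6a-cKO libraries, a range that overlaps the oligodendrocytes, though the fitted difference passed (−0.71 ± 0.23 SE, edgeR adjusted p = 0.00644). Mossy nuclei had the highest mean of the tested neuron classes, 3.71 CPM, with 6.29, 3.30, 3.70 and 1.54 CPM in the order of the libraries (both Control first) on 6, 5, 5 and 2 counts. Subiculum and deep layer nuclei had a mean of 1.62 CPM and overlapped CA3. CA3 had 1.19, 1.43, 0.79 and 1.68 CPM and CA1 0.104, 0.254, 0.244 and 0.226 CPM. The lowest CA3 library is above the highest CA1 library, and the difference was 2.62 ± 0.30 (6.14-fold, edgeR adjusted p = 8.53e-06). The counts behind these were 14 to 34 per library in CA3 and 3 to 8 in CA1. The genes nearest to Nkd1 were Pkmyt1 (r 0.946), Lims2 (0.938) and Rexo2 (0.937). These r values include the untested endothelial nuclei, which held more Nkd1 than any tested class on few counts.

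Apcdd1 (chromosome 18, 62922231 to 62961179, plus strand) was, among the tested neuron classes, highest in immature and then mature dentate nuclei. Immature dentate nuclei had 52.9 and 52.5 CPM in Control libraries against 45.1 and 66.2 in Kat6a-cKO, and mature dentate granule nuclei 13.7, 15.1, 13.2 and 15.8 CPM. The immature class was above the mature one by 1.67 ± 0.13 (SE, 3.18-fold, edgeR adjusted p = 2.07e-15). CA1 nuclei had 1.94 to 3.59 CPM and CA3 nuclei 2.57 to 3.27 CPM, so that mature dentate granule nuclei were above CA1 by 2.39 ± 0.12 (5.23-fold, edgeR adjusted p = 1.99e-09). An unnamed cluster of 226 nuclei with Adam12, Bmpr1b and Hrh3 among its leading genes, which is in no class, had 13.1 CPM of Apcdd1 when pooled. CA3 and CA1 did not differ beyond their spread (0.15 ± 0.15, edgeR adjusted p = 0.417, 95% interval −0.14 to 0.44). The CA3 class mixes the cluster led by Armc4, with 6.97 CPM when pooled, and the larger one led by Nectin3, with 2.14 CPM. Cd24a (r 0.932), Ulk1 (0.913) and Iigp1 (0.91) followed Apcdd1 most closely over the classes, and Lef1 had an r of 0.825 with it. Endothelial nuclei, the class of fewest counts, are among these classes and held more Apcdd1 and more Lef1 than any tested class. Tcf7l2 was followed most closely by S100a6 (0.947), Lrmda (0.941) and Ermard (0.939).

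Sp5 (chromosome 2, 70474923 to 70477729, plus strand), the gene with the motif in its printed window, had 3 counts in all classes together. Of these, 1 lay in astrocytes and 2 in dentate granule nuclei. It had 0 counts in CA3 and CA1 in every library and was not tested in any class.

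Between genotypes, Lef1 in CA3 had the lowest unadjusted p of the members in any class, and it did not pass. CA3 nuclei held 32 and 55 Lef1 counts in Control libraries and 14 and 22 in Kat6a-cKO libraries, or 2.0 and 3.03 CPM against 0.79 and 1.09 CPM. Both Kat6a-cKO libraries lie below both Control libraries, as did 2 of 9 members tested and 19.9% of all genes. This is a log2 fold change of −1.40 ± 0.34 (SE, n = 2 and 2 libraries), with an unadjusted p of 0.00153 and an edgeR adjusted p of 0.231, over a range of 0.00254 to 0.683 in the alternatives that gave one. It passed under 3 of the 12 alternatives. These were no filter on low counts (log2 fold change −1.40, edgeR adjusted p = 0.00254), the replicate block, and Control replicate 1 left out (−1.63). The block treats libraries of the same number as belonging together, which the labels do not say. In the main fit 0 of 9 members and 0.0259% of all genes passed in CA3. With no filter and with the replicate block many more genes passed there, as counted in the closing section. The number also moved widely with a library left out, which leaves a lone library in that group.

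The Lef1 counts in CA3 were spread over few nuclei. In Control 18 of 568 and 33 of 702 CA3 nuclei had a Lef1 UMI, or 3.17% and 4.70%, and in Kat6a-cKO 12 of 741 and 22 of 828, or 1.62% and 2.66%. In CA1 1.33% and 1.51% of nuclei in Control against 1.89% and 0.736% in Kat6a-cKO had one. The median CA3 nucleus held 27470.5 and 25045.5 UMIs in Control against 22812 and 24131 in Kat6a-cKO, and the median CA1 nucleus 16470 to 18330. These shares are thus at different depths between the classes, and in CA3 also between the genotypes. The part of depth in the numbers of CA3 nuclei with Lef1 was not tested. Nuclei with 2 or more Lef1 UMIs numbered 7 and 12 in CA3 of Control and 2 and 0 in Kat6a-cKO, and they held 21 of 32 and 34 of 55 of the counts in Control against 4 of 14 and 0 of 22 in Kat6a-cKO. The highest nucleus had 7 UMIs in Control replicate 1, 5 in Control replicate 2, 2 in Kat6a-cKO replicate 1 and 1 in Kat6a-cKO replicate 2. In the cluster led by Nectin3, which holds most CA3 nuclei, Lef1 was 2.23 and 3.39 CPM in Control libraries against 0.782 and 1.11 CPM in Kat6a-cKO libraries, and the fit on that cluster alone, added after the data were seen, gave −1.54 (edgeR adjusted p = 0.214). In the cluster led by Armc4 the values were 0.87 and 1.45 against 0.933 and 1.24 CPM, which overlap.

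**Figure D3:**
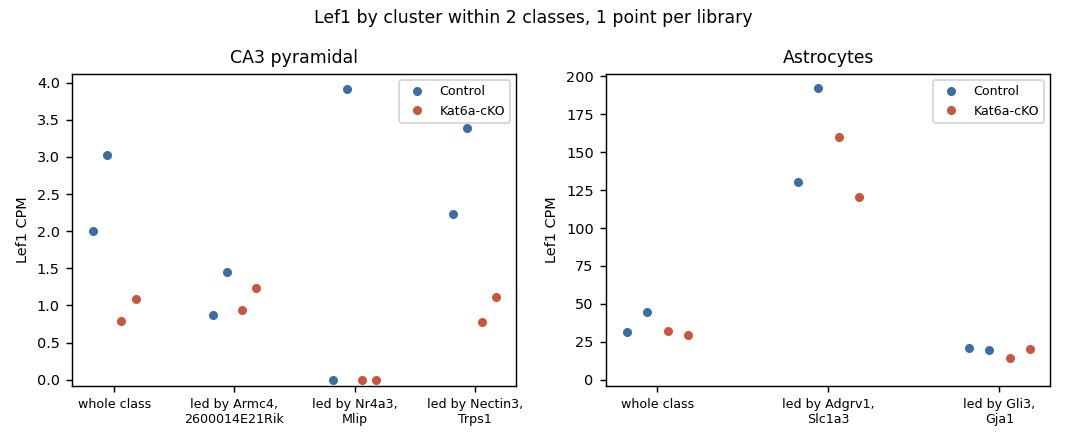
Lef1 levels (vertical, CPM) in CA3 nuclei (left) and astrocytes (right), for the whole class and for each of its clusters named by 2 leading genes, with 1 point per library (blue Control, red Kat6a-cKO). In CA3 the Control points lie above the Kat6a-cKO points in the whole class (2.0 and 3.03 against 0.79 and 1.09) and in the cluster led by Nectin3, and the cluster led by Nr4a3 holds 2 counts in all.

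Endothelial nuclei carry the most Lef1, so the 9 endothelial markers were summed in CA3. They came to 28.0 and 27.4 CPM in Control libraries against 25.8 and 26.4 CPM in Kat6a-cKO libraries, most of it from Tek at 294 to 350 counts per library. Of the list, Flt1, a receptor of vascular growth factor, had 41 and 34 counts in Control against 14 and 13 in Kat6a-cKO (log2 fold change −1.61 ± 0.36 SE, edgeR adjusted p = 0.215). Cldn5, the tight junction protein that defines brain endothelium, had 1 and 3 counts in Control against 4 and 6 in Kat6a-cKO. The CA3 nuclei with a Lef1 UMI held 3, 3, 0 and 0 Flt1 counts in the order of the libraries, and 0, 0, 1 and 0 Cldn5 counts. Empty barcodes, given above, hold more Lef1 per count than CA3 nuclei. The part of endothelial or free RNA in the Lef1 difference was not tested.

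In CA1 and dentate granule nuclei the Lef1 values of the genotypes overlapped. CA1 nuclei had 0.695 and 0.888 CPM in Control libraries against 1.10 and 0.42 in Kat6a-cKO (log2 fold change −0.08 ± 0.46 SE, edgeR adjusted p = 0.979), and the Kat6a-cKO libraries lie on both sides of Control. Dentate granule nuclei had 0.898 and 0.67 against 0.924 and 0.848 CPM (0.18 ± 0.29 SE, edgeR adjusted p = 0.905). Subiculum and deep layer nuclei had too few counts for the test, at 4 and 4 in Control against 10 and 14 in Kat6a-cKO. Their levels of 0.491 and 0.738 against 1.08 and 1.55 CPM did not overlap, and the Kat6a-cKO libraries were the higher ones; 18.9% of the genes tested in that class are placed so. The difference of the genotype effect between classes, tested with the library as a block, was −1.29 ± 0.53 (SE) for CA3 minus CA1 (edgeR adjusted p = 0.69) and −1.59 ± 0.45 for CA3 minus dentate granule (edgeR adjusted p = 0.402). Neither passed, 0 of 9 members passed in either comparison, and of all genes 0.202% and 0.0798% did. The first rests on single libraries: it was −0.29 without Kat6a-cKO replicate 1 and passed at −2.13 without Kat6a-cKO replicate 2. The second passed at −2.03 without Control replicate 1. Such fits leave a lone library in a group, and the number of all genes that passed moved widely with them, as given in the closing section. The same CA3 nuclei bear on the level of Lef1 between classes: CA3 was above CA1 by 1.17 ± 0.31 over the 4 libraries (edgeR adjusted p = 0.00627), while in the Kat6a-cKO libraries the CA3 values of 0.79 and 1.09 CPM fall within the CA1 range of 0.42 to 1.10 CPM.

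**Figure D4:**
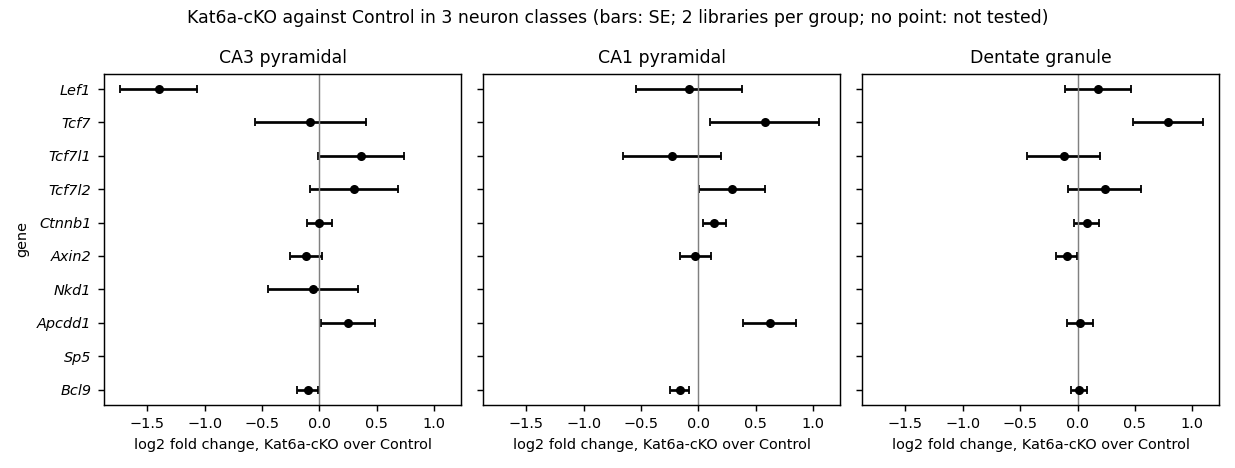
Log2 fold change of Kat6a-cKO over Control (horizontal) of each gene (vertical) in CA3, CA1 and dentate granule nuclei; points are fitted values, bars are ± 1 SE, and a gene with no point was not tested in that class. Lef1 in CA3, at −1.40 ± 0.34, lies farthest from 0, and no point passed the adjusted threshold.

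The other members did not pass in any of the 14 classes, in which 3 to 9 of the 10 had enough counts to be tested. The share of all genes that passed was 0.126% in CA1, 0.387% in dentate granule, 0.0671% in CA2, 0.714% in mossy, 0.144% in subiculum and deep layer, 0.103% in inhibitory, 0.231% in astrocyte, 0.133% in precursor and 0.0086% in oligodendrocyte nuclei, and it was 0% in immature dentate and committed precursor nuclei, microglia and the Nxph1-Kcnmb2 cluster. In those 4 groups edgeR gave 835, 298, 903 and 733 genes with an unadjusted p under 0.05. DESeq2 called 2 genes in the Nxph1-Kcnmb2 cluster and 0 in the other 3.

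Besides Lef1, 4 members had an unadjusted p under 0.05 in 1 class each, as did 9.08% of all genes in microglia, 8.80% in subiculum and deep layer, 9.96% in dentate granule and 8.63% in CA1 nuclei. Tcf7l2 in microglia had 589 and 601 CPM after TMM scaling in Control against 694 and 839 in Kat6a-cKO (log2 fold change 0.36 ± 0.11 SE, edgeR adjusted p = 0.333), with both Kat6a-cKO libraries higher. Tcf7l1 in subiculum and deep layer nuclei had 0.993 and 0.361 against 1.98 and 3.11 CPM (1.78 ± 0.52 SE, edgeR adjusted p = 0.311), on 8, 2, 18 and 28 counts. Most of these counts lie in the cluster led by Vwc2l, which holds 142 of 488 and 136 of 327 nuclei of the class in Control against 249 of 615 and 264 of 577 in Kat6a-cKO. Within it the levels were 1.73 and 0.46 against 2.75 and 6.54 CPM, and the part of this makeup in the difference was not tested. Tcf7 in dentate granule nuclei had 0.537 and 0.454 against 0.968 and 0.75 CPM (0.79 ± 0.31 SE, edgeR adjusted p = 0.423). Apcdd1 in CA1 nuclei had 2.29 and 1.88 against 2.78 and 3.58 CPM (0.62 ± 0.23 SE, edgeR adjusted p = 0.489). In each of these 4 both Kat6a-cKO libraries are above both Control libraries; of all genes, 19.5% are placed so in microglia, 18.9% in subiculum and deep layer, 19.6% in dentate granule and 18.2% in CA1 nuclei.

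Axin2, the most general of the target genes, had small standard errors in the deepest classes. In CA3 its log2 fold change was −0.12 ± 0.14 (SE, edgeR adjusted p = 0.91, 95% interval −0.39 to 0.16), in CA1 −0.03 ± 0.14 and in dentate granule nuclei −0.10 ± 0.09. After TMM scaling both Kat6a-cKO libraries of CA3 lay below both Control libraries (10.54 and 9.70 against 10.55 and 11.33 CPM), as did 19.9% of all genes. Over the tested classes Axin2 ran from −0.64 ± 0.33 in astrocytes (edgeR adjusted p = 0.734) to 0.17 ± 0.17 in subiculum and deep layer nuclei. It was above 0 only there and in inhibitory nuclei, but several of the values below 0 lay within their SE of 0, such as −0.01 ± 0.27 in CA2. The classes come from the same libraries, and the share of all genes with such signs was not counted. Ctnnb1 in CA3 was 0.00 ± 0.11 (edgeR adjusted p = 0.999), with 23.6 and 26.3 CPM in Control libraries against 24.6 and 25.4 in Kat6a-cKO, which interleave. Apcdd1 in dentate granule nuclei was 0.02 ± 0.11, Nkd1 in CA3 −0.06 ± 0.39 and Bcl9 in CA3 −0.10 ± 0.09.

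Further genes of the pathway were taken as a list of 49 in 3 groups: 16 of the destruction complex, receptors and cadherin partners, 17 nuclear partners of beta-catenin and Tcf, and 16 further known targets. In CA3 43 were tested and 0 passed in either direction; the median log2 fold change was 0.03, beside −0.01 over all genes tested. In each of the other 13 classes 0 passed as well. In CA3 7 of the 43 had an unadjusted p under 0.05, beside 7.93% of all genes tested. They were named after their values were seen: Tle2, Tbl1x, Aes and Ctbp1 had log2 fold changes of −0.78, −0.36, −0.36 and −0.32, Gsk3a, a kinase that marks beta-catenin, had −0.38, and Ctnna1 and Lgr5 had 0.30 and 0.55. Tle2 had 6.27 and 5.37 CPM in Control libraries against 3.67 and 3.1 in Kat6a-cKO, the lowest edgeR adjusted p of the list in CA3 (0.273). All 7 also had an unadjusted p under 0.05 in at least 1 other class. In single classes 5.49% to 9.96% of all genes had such a p, and the share with it in CA3 and another class was not counted. The classes come from the same libraries, so they do not repeat each other independently. Aes had −0.56 in oligodendrocytes, −0.42 in CA1 and −0.34 in dentate granule nuclei, Gsk3a −0.33 in dentate granule nuclei and Tbl1x −0.40 in CA2 but 0.23 in oligodendrocytes. Lgr5 had 1.10 in CA1, Ctnna1 0.30 to 0.68 in 4 further classes, Ctbp1 −0.67 in precursors, and Tle2 −0.90 in precursors but 0.57 in oligodendrocytes. No difference of these genes between classes was tested. The most abundant genes of the 3 groups did not pass in CA3 either. Their log2 fold changes were Ctnna2 0.14 ± 0.07 (SE), Cdh2 0.01 ± 0.08, Crebbp 0.03 ± 0.07 and Tbl1xr1 0.03 ± 0.07, and Znrf3 0.05 ± 0.09; Prox1, a dentate granule factor, had −0.34 ± 0.21 there on 3.44 to 5.12 CPM.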

How the data were processed

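Single-nucleus RNA sequencing (10x Genomics Chromium) was done on hippocampus of 2 Control and 2 Kat6a-cKO libraries. The authors deposited whole-number UMI counts per barcode and gene for all barcodes, empty droplets included. The submitters' processing notes name mm10 and Seurat 4.0.1; the aligner, annotation and strand setting are not given in the sources used here, so sense and antisense genes cannot be told apart.

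Neurons were barcodes of at least 5000 UMIs and glia of at least 1000. Scrublet doublets were left out (scanpy 1.11.5, expected rate 0.06), and nuclei were clustered by Leiden at resolution 1 (leidenalg 0.10.2; 2000 variable genes, 30 components, 15 neighbours, no integration), leaving out 99 genes: the members, the pathway list, Kat6a, Rspo2, Neurod6 and mitochondrial genes. A cluster was named where at least 50% and at least 3 markers of a type were raised 2-fold; the exceptions for a second lineage were set after seeing the data. For glial barcodes of 5000 UMIs or more both clusterings had to give the same name, which left out 137. Free RNA was not removed.

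Counts were summed per class and library and tested with edgeR 4.0.16 (quasi-likelihood, TMM, filterByExpr, Benjamini-Hochberg adjusted p under 0.05, R 4.3.3). The test was also run on simulated counts, with means and dispersions taken from these data. Levels between classes were tested with the library as a block, and 5 of those contrasts were added after seeing the data. The added ones were committed precursors minus precursors and minus oligodendrocytes, and immature minus mature dentate nuclei. Microglia minus oligodendrocytes and astrocytes minus microglia were the others. Their classes were picked with the levels already known. Intervals called 95% are 1.96 SE on either side and, like all errors here, rest on few libraries. They use a normal approximation and are narrower than the test itself implies. Bcl9 in CA1, for example, had an interval of −0.327 to −0.00139 at an unadjusted edgeR p of 0.0827. Alternatives were DESeq2 1.42.0, its size factors, no filter, the replicate block, higher UMI minimums, resolution 2, doublets kept and each library left out. The named genes were the members, pathway genes that passed or were the 2 most abundant of their group, and the 3 nearest genes by Pearson r of log2(CPM + 5) among genes of at least 10 CPM in some class. No pathway gene passed; 7 with an unadjusted p under 0.05 in CA3, and the marker genes, were named outside this rule. The members and lists were chosen with earlier results of these data known. Positions are from GENCODE M21 (GRCm38), matched by ID; the version of the Tcf7 ID differs.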

Additional observations from a re-analysis of the deposited data

How the results depend on the processing

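No member passed the threshold in any class under DESeq2 size factors, DESeq2, higher UMI minimums, Leiden resolution 2 or with doublets kept. Resolution 2 and doublets kept were not run for the Nxph1-Kcnmb2 cluster. Lef1 in CA3 was the 1 member called by no filter on low counts and by the replicate block, and it was also called without Control replicate 1. Its log2 fold change in CA3 stayed between −1.64 and −1.10 over all alternatives, and DESeq2 gave it no adjusted p. The member count with a replicate left out was 0 to 1 in CA3 and in both differences of effect. The difference of the Lef1 effect, CA3 minus CA1, passed without Kat6a-cKO replicate 2 (−2.13, edgeR adjusted p = 0.0371), and CA3 minus dentate granule passed with no filter (−1.56, 0.0334; 1 member) and without Control replicate 1 (−2.03, 0.0112). Lef1 in CA1 ran from −0.904 (Kat6a-cKO replicate 1 left out) to 0.507 (Kat6a-cKO replicate 2 left out), with 0.0735 when Control replicate 2 was left out, and in dentate granule nuclei from −0.031 (Control replicate 2 left out) to 0.433 (Control replicate 1 left out). The level comparisons were rerun for 6 pairs with higher UMI minimums and at resolution 2. Astrocytes minus oligodendrocytes called 7 to 8 members, inhibitory minus CA1 4 to 7 and CA3 minus dentate granule 6 to 7. The other 3 pairs kept their counts. In the main fits 57.5%, 58.1% and 69% of all genes passed in the pairs named, in that order. The shares of all genes in these reruns are not given here. Tcf7l2 in committed precursors turned from 0.28 to −0.29 with doublets kept. The cause of these changes was not tested.

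Counts of all genes called moved more. DESeq2 called 0 in astrocytes, 116 in CA1, 11 in CA2, 29 in CA3, 205 in dentate granule, 6 in inhibitory, 2 in Nxph1-Kcnmb2, 1 in precursor, 4 in oligodendrocyte and 55 in subiculum nuclei, against 25, 21, 7, 4, 67, 13, 0, 13, 1 and 20. No filter on low counts gave 509 in CA1, 86 in CA2, 291 in CA3, 25 in committed precursors, 537 in dentate granule, 78 in immature dentate, 73 in inhibitory, 174 in mossy, 79 in Nxph1-Kcnmb2, 28 in precursors, 119 in oligodendrocytes and 3 in subiculum, and 204 and 85 for the effect of CA3 minus CA1 and minus dentate granule. Higher UMI minimums gave 1 in committed precursors, 1 in immature dentate, 5 in inhibitory, 18 in microglia, 2 in Nxph1-Kcnmb2, 25 in precursors and 13 in subiculum. Resolution 2 gave 4 in CA2, 2 in CA3 and 3 in inhibitory nuclei. Doublets kept gave 3 in CA2, 2 in CA3, 10 in committed precursors, 0 in inhibitory, 7 in microglia and 8 in precursors.

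The labels do not say that a replicate number marks a shared litter or day, and same-numbered libraries correlated in their deviations by −0.05 to 0.30. With the replicate block 138 genes passed in astrocytes, 39 in CA1, 38 in CA2, 193 in CA3 (1 member), 177 in dentate granule, 107 in immature dentate, 30 in inhibitory, 51 in microglia, 37 in Nxph1-Kcnmb2, 22 in precursors, 321 in oligodendrocytes and 108 in subiculum.

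With each replicate left out in turn, the counts ran from 8 to 43 in astrocytes, 26 to 337 in CA1, 59 to 65 in CA2, 2 to 321 in CA3, 4 to 37 in committed precursors, 69 to 395 in dentate granule, 1 to 180 in immature dentate, 56 to 132 in inhibitory, 0 to 97 in microglia, 92 to 155 in mossy, 0 to 83 in Nxph1-Kcnmb2, 1 to 15 in precursors, 1 to 130 in oligodendrocytes and 27 to 427 in subiculum, and 66 to 187 and 3 to 215 for the 2 differences of effect; the lone library of a group is then assumed to vary like the others. Endothelial nuclei were too few for the test.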
